A study of Homo sapiens with 6 samples.

Results

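The genes described here are 10 members of the Notch pathway among 19830 genes measured in PANC-1 cells, a line established from a pancreatic ductal tumour. They were chosen by symbol: the receptors NOTCH1, NOTCH2 and NOTCH3, the partial receptor copy NOTCH2NL, the ligands JAG1 and JAG2, the DNA-binding factor RBPJ, and the target genes HES1, HES4 and HEY1. All 10 were tested by the authors. RNA was sequenced from cells given 25 nM of SOX9 siRNA (2 libraries) and from cells given 25 nM of a control siRNA (2 libraries). Both groups were transfected with Lipofectamine, and cells were pooled and harvested after 48 hours. The series also holds 2 SOX9 ChIP samples from untransfected cells, which were not analysed here.

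Notch receptors sit in the cell membrane and are cut when a ligand on a neighbouring cell binds them. The freed inner part enters the nucleus, joins RBPJ on DNA and switches on target genes, of which the HES and HEY repressors are the best known. In the pancreas the pathway holds progenitor cells in an undifferentiated state, SOX9 acts alongside it in duct and progenitor cells, and it is active again in many pancreatic ductal tumours.

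SOX9 siRNA was accompanied by a fall of a single member, the receptor NOTCH2. The other 9 members, which include the other receptors, both ligands, RBPJ and all 3 target genes, did not pass the test. Among all tested genes 1.81% were called in either direction and 0.939% fell, at the adjusted p under 0.05 used throughout. The median log2 fold change of the 10 members was -0.03, against -0.02 over the 14063 tested genes. By point value 5 of the members were above 0 and 5 below it.

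The values are the authors' comparison of the groups, with a mean normalized count (reads per gene scaled for library size and averaged over the libraries), a log2 fold change and the standard error of that change. The table gives no value per library, so levels per group were computed from the mean count and the fold change and are called implied levels. Counts are not scaled by gene length, so levels are compared between groups and not between genes. The header leaves the numerator unnamed. SOX9 siRNA over control siRNA was assumed, since the siRNA target SOX9 is then lower, and all directions would turn if that were wrong. SOX9 itself had an implied level of 1782 normalized counts in SOX9 siRNA cells and 3184 in control siRNA cells, and at 0.0643 its DESeq2 adjusted p in the authors' deposited table did not pass. The labels do not tell whether the 2 libraries of a group were separate cultures, and the p-values then cover a spread between libraries that may be only technical.

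The line was checked against markers. Keratins of simple epithelia had many reads, with mean normalized counts of 203350 for KRT8 and 99583 for KRT19 in the authors' deposited table. Mean normalized counts of the 4 endothelial markers were 3.87 or less in the authors' deposited table. Of the leukocyte markers, PTPRC had 2.28, CD79A 6.94 and CD14 52.2. The fibroblast list ran from 1.52 for COL1A2 to 449 for COL1A1. Beside the fall of NOTCH2, some markers moved in differing directions. Of the epithelial markers, EPCAM fell (-1.76 on the log2 scale), while KRT8 (0.55), KRT18 (0.50), KRT19 (0.50), CDH1 (0.63) and KRT7 (0.06) did not pass, by the authors' deposited table. Of the fibroblast markers, COL1A1 rose (0.98) and PDGFRB, at 0.01, did not pass, and the leukocyte marker CD14, at 1.21, did not pass either, by the authors' deposited table. Their part in the NOTCH2 value was not tested. In bulk RNA, fewer cells of a type and less RNA per cell cannot be told apart.

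The promoters of NOTCH2 and NOTCH2NLA are shown first, because NOTCH2NL genes arose as partial copies of NOTCH2 and reads of the copied part may not be assigned with certainty. RefSeq (GRCh38.p14) lists 4 such copies, and NOTCH2NL is an older name of 3 of them, so the copy behind the NOTCH2NL row is not known. Below are the 250 bases before each start, both on the minus strand, at chr1:120069663-120069912 for NOTCH2 and chr1:146229022-146229271 for NOTCH2NLA. Capitals mark the longest run that both windows share, 235 bases.
NOTCH2: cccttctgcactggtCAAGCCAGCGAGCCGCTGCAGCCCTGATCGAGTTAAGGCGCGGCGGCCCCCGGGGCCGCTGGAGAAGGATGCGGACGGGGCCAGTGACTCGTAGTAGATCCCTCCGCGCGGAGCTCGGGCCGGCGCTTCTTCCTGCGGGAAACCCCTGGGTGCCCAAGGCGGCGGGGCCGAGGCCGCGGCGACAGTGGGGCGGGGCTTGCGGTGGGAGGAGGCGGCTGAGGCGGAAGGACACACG
NOTCH2NLA: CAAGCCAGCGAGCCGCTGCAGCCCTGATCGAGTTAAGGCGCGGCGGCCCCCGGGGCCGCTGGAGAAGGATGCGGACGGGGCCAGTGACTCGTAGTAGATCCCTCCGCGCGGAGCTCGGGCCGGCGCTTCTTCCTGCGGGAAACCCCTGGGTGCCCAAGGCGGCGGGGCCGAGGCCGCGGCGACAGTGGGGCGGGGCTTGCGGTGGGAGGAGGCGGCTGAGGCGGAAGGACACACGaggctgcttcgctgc

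The shared run fills the NOTCH2NLA window up to its last bases before the start. Over the 300-base windows that include the first 50 transcribed bases, NOTCH2 and NOTCH2NLA were identical at 284 of 285 aligned positions. Of the 50 transcribed bases of NOTCH2 in that window, 49 were identical in NOTCH2NLA. The copies NOTCH2NLB, NOTCH2NLR and NOTCH2NLC were identical to NOTCH2 at 99.6%, 98.5% and 93.3% of aligned positions. NOTCH2NLB has a second start site in the table, whose window shared no run over 8 bases with NOTCH2 and was not aligned. The longest run shared with NOTCH2 was 246 bases for NOTCH2NLA, against 11 bases for NOTCH1 and 10 for NOTCH3. The libraries were read as 100-base pairs, per the labels, and the rest of the transcripts was not compared here.

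The target promoters are shown because both hold GTGGGAA, letters that RBPJ is known to bind. Binding of RBPJ to them in these cells was not tested. They are the 250 bases before the start of HES1 (chr3:194135898-194136147, plus strand) and HES4 (chr1:1000098-1000347, minus strand), from RefSeq GRCh38.p14, and capitals mark TGGGAA.
HES1: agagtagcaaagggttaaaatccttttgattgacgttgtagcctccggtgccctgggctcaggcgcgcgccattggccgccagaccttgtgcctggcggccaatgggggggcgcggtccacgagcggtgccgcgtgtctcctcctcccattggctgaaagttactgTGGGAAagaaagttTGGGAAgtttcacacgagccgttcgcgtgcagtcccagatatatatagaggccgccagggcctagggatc
HES4: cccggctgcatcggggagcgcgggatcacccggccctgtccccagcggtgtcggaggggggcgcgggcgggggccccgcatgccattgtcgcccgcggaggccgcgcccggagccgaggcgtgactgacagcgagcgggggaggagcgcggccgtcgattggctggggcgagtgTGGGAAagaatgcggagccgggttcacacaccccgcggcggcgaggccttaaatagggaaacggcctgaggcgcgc

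In HES1 the letters TGGGAA stand at 84 to 79 and at 70 to 65 bases before the start, both on the gene's strand. HES4 holds them at 76 to 71 bases before the start. The longer form, with a G before those letters, matched the first of the HES1 positions and the HES4 position. The second HES1 position has a T there and holds the short form only.

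NOTCH2, a receptor of progenitor and duct cells, had an implied level of 7424 normalized counts in SOX9 siRNA cells and 19652 in control siRNA cells. Its level was 37.8% of control in the authors' deposited table, and the 95% interval ran from 27.0% to 53.0%. On the log2 scale NOTCH2 changed by -1.40 with a standard error of 0.25, and the DESeq2 adjusted p was 2.24e-05 in the authors' deposited table. By p it stood at rank 10 of the 14063 tested genes. Its mean normalized count of 13538 in the authors' deposited table was above that of 95.9% of tested genes, without scaling by length.

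Among the 1338 tested genes with a mean count from 0.5 to 2 times that of NOTCH2, only 1 had a lower fold change. That gene was DDAH1, an enzyme that breaks down methylated arginine, at -1.52 on the log2 scale in the authors' deposited table. By a rule of nearest log2 fold change within that range of counts, the 3 genes most like NOTCH2 were CYR61, DDAH1 and MBP. CYR61, a secreted matricellular protein, stood at -1.31 on the log2 scale in the authors' deposited table, where its DESeq2 adjusted p was 0.00143. MBP, named for myelin basic protein, stood at -1.13 in the authors' deposited table, where its DESeq2 adjusted p was 0.000482. The likeness rests on a single comparison of 2 groups.

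NOTCH2NL, whose protein resembles the outer end of NOTCH2 and lacks its signalling part, had an implied level of 1292 normalized counts in SOX9 siRNA cells and 1647 in control siRNA cells. That is 78.5% of control with a 95% interval from 52.9% to 117% in the authors' deposited table, and the DESeq2 adjusted p was 0.757. The lower end of this interval lay just below the upper end of that of NOTCH2, 53.0%, and the difference between their fold changes was not tested.

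Few reads were given to NOTCH2NL beside those of NOTCH2. Its mean normalized count of 1470 in the authors' deposited table was 10.9% of that of NOTCH2. This is a share of reads, without scaling by length, and not of level. The implied levels differed between the groups by -12228 normalized counts for NOTCH2 and by -354 for NOTCH2NL, SOX9 siRNA minus control siRNA. With both rows added together, the level was 8717 normalized counts in SOX9 siRNA cells and 21299 in control siRNA cells, which is 40.9% of control or a log2 fold change of -1.29. Most of the summed reads were those of NOTCH2, so the sum follows NOTCH2, which alone was at 37.8% of control. The sum holds every read given to either row, so it does not depend on how those reads were split between these 2 rows. Reads given to several genes at once or dropped are not in it, and the labels do not say how such reads were handled.

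NOTCH1, a receptor active in many epithelia and in T cells, had an implied level of 1111 normalized counts in SOX9 siRNA cells and 1172 in control siRNA cells. It stood at 94.8% of control in the authors' deposited table, with a 95% interval from 72.5% to 124%. NOTCH3, a receptor known for its role in the muscle of blood vessels, had few reads, with implied levels of 61.4 in SOX9 siRNA cells and 36.5 in control siRNA cells. Its value of 168% of control in the authors' deposited table had a wide 95% interval, from 76.7% to 368%. The DESeq2 adjusted p was 0.965 for NOTCH1 and 0.717 for NOTCH3 in the authors' deposited table. The intervals of NOTCH1 and NOTCH3 lay wholly above that of NOTCH2, and the differences between receptors were not tested.

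**Figure D1:**
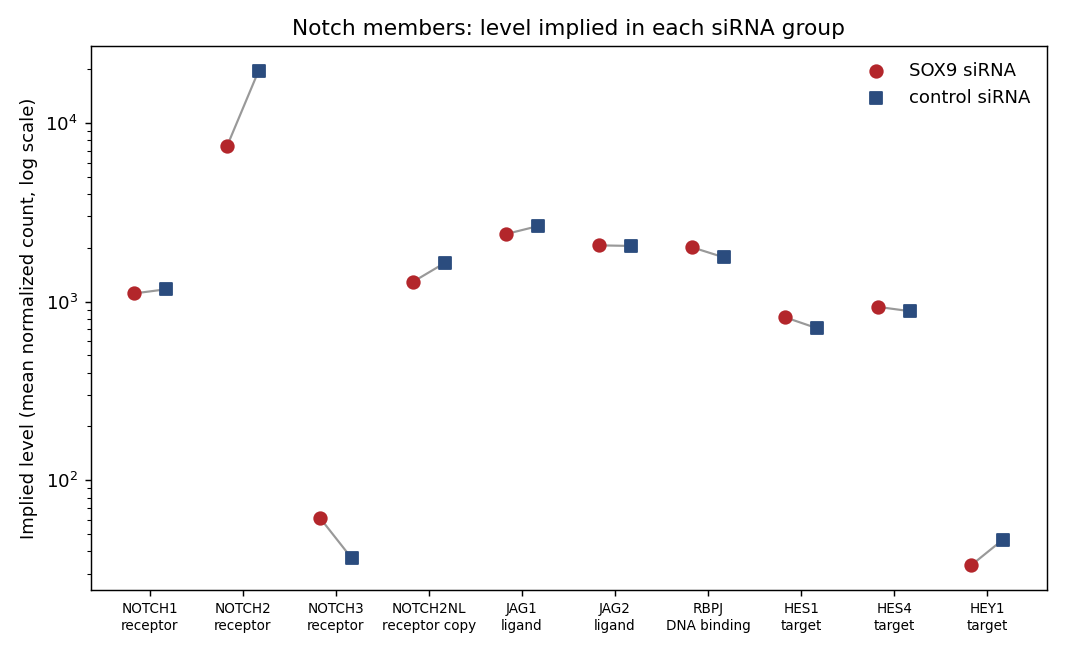
Level of each member implied by the authors' mean normalized count and fold change (log axis), with a circle for SOX9 siRNA and a square for control siRNA, 2 libraries each and no value per library. NOTCH2 stands at 7424 against 19652, and counts are not scaled by gene length, so only the 2 points of a gene compare.

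JAG1, a ligand that binds several Notch receptors, had an implied level of 2392 normalized counts in SOX9 siRNA cells and 2647 in control siRNA cells. JAG1 was at 90.4% of control in the authors' deposited table, with a 95% interval from 69.7% to 117%. JAG2, its close relative, had implied levels of 2066 in SOX9 siRNA cells and 2051 in control siRNA cells. JAG2 was at 101% of control in the authors' deposited table, and its interval from 80.4% to 126% was the narrowest among the 10 members on the log2 scale. The DESeq2 adjusted p was 0.89 for JAG1 and 0.993 for JAG2 in the authors' deposited table.

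RBPJ, which holds target genes silent without a Notch signal and activates them with it, had an implied level of 2014 normalized counts in SOX9 siRNA cells and 1769 in control siRNA cells. RBPJ was at 114% of control in the authors' deposited table, with a 95% interval from 75.3% to 172% and a DESeq2 adjusted p of 0.923. HES1, a repressor that holds back endocrine and acinar differentiation in the pancreas, had implied levels of 816 in SOX9 siRNA cells and 710 in control siRNA cells. HES1 was at 115% of control in the authors' deposited table, with an interval from 70.0% to 189%. HES4, a relative of HES1 that mice lack, had implied levels of 934 in SOX9 siRNA cells and 884 in control siRNA cells, and its value of 106% had an interval from 81.5% to 137% in the authors' deposited table. HEY1, a repressor of the HES-related family, had few reads, with implied levels of 33.5 in SOX9 siRNA cells and 46.6 in control siRNA cells. HEY1 was at 71.9% of control in the authors' deposited table, with an interval from 32.4% to 160%. The DESeq2 adjusted p of HES1, HES4 and HEY1 was 0.934, 0.959 and 0.878 in the authors' deposited table.

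**Figure D2:**
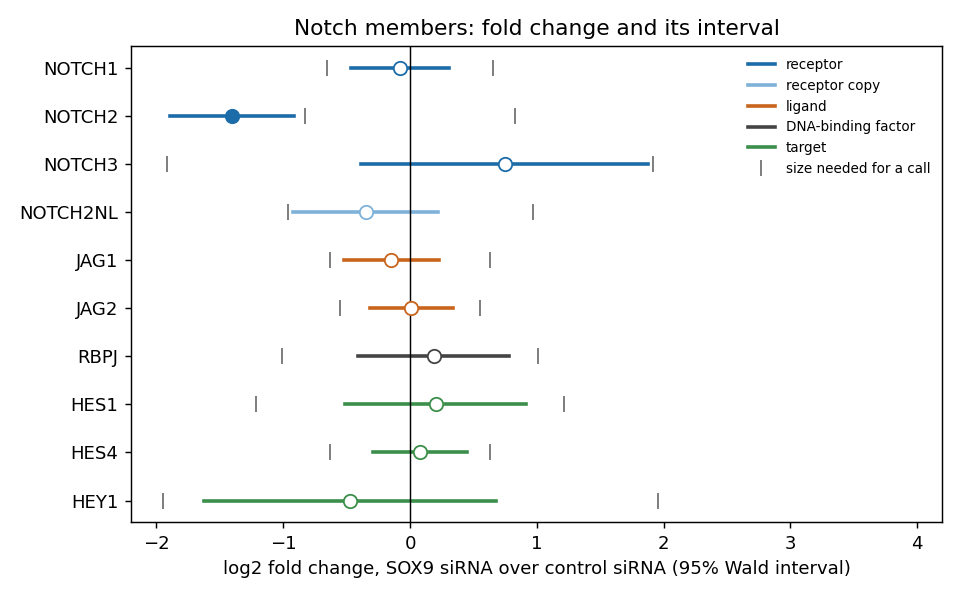
Log2 fold change of each member, SOX9 siRNA over control siRNA, with its 95% Wald interval, coloured by role. The filled point (NOTCH2, -1.40) passed the test, open points did not, and the grey ticks mark the size a change needed for a call at that gene's standard error. NOTCH2 lies beyond its ticks, and the intervals of the other 9 members include 0.

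How large an observed change had to be for a call differs between members. The largest p that was called over all genes was 0.000901, so a member needed a fold change of 3.32 standard errors. For JAG2, HES4, JAG1 and NOTCH1 a rise of 1.46-fold, 1.55-fold, 1.55-fold and 1.58-fold would have been called at their standard errors. HES1 would have needed a rise of 2.32-fold or a fall to 43.2% of control, and RBPJ a rise of 2.01-fold or a fall to 49.7%. NOTCH3 and HEY1, with mean normalized counts of 49.0 and 40.0 in the authors' deposited table, would have needed rises of 3.77-fold and 3.87-fold. Smaller observed changes of these genes would not have been called. These sizes are cutoffs on the observed value and not limits on the true change.

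The deposited standard errors were larger than counting alone would give. Counting alone would give NOTCH2 a standard error of 0.0139 on the log2 scale, and the deposited standard error was 17.9 times as large. For the other members the ratio ran from 2.54 for HEY1 to 9.14 for RBPJ. Of the 10 members, 4 had a standard error above that of 90% of tested genes with a mean count from 0.5 to 2 times their own. They were HES1 and RBPJ (both above 96.9% of such genes), NOTCH2NL (94.7%) and NOTCH2 (94.1%). The standard error of HES1 was 0.36, against a median of 0.22 over its 3528 genes of like count, and that of JAG2 was 0.17, against 0.19 over 4825 genes.

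**Figure D3:**
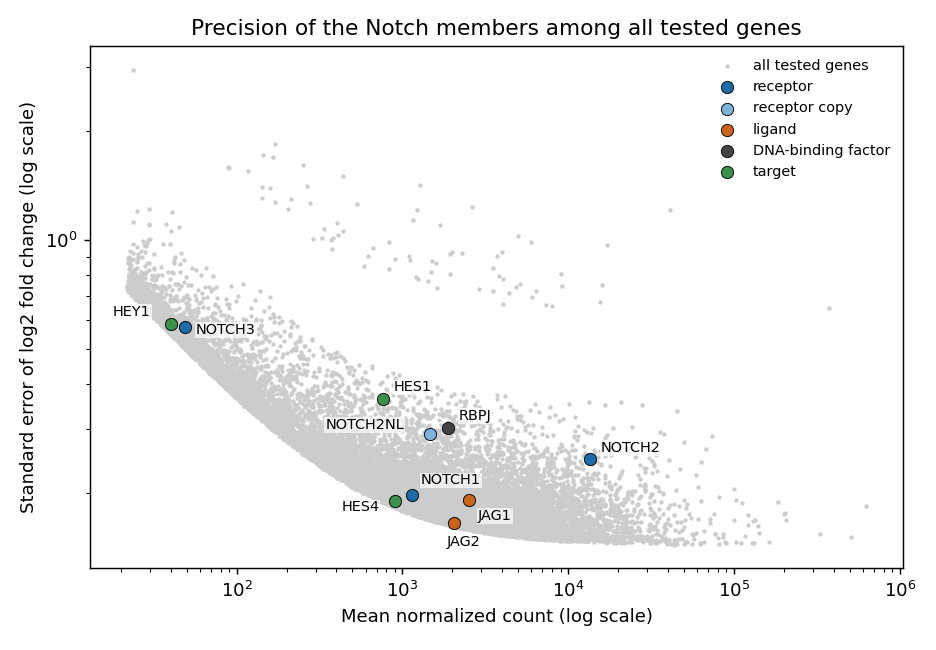
Standard error of the log2 fold change (log axis) against mean normalized count (log axis) for all tested genes in grey and the 10 members in colour by role. HES1, RBPJ, NOTCH2NL and NOTCH2 lie high in the cloud at their counts, JAG2 and HES4 below the median of genes of like count, and NOTCH3 and HEY1 at the low-count end.

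Motifs were counted in the 250 bases before the RefSeq start sites of 9 members, on both strands, with the NOTCH2NLA window for NOTCH2NL, and HEY1 was not included. The RBPJ core GTGGGAA matched in 3 of the 9 (HES1, HES4 and RBPJ itself). Counted by start site, as RBPJ has 5, that is 3 of 13 windows, beside 5.43% of all 35116 promoter windows in the table. The shorter TGGGAA matched in the same 3 members and 3 of 13 windows and is held by 20.8% of all windows. At RBPJ both forms matched before the second site only, at 115 to 109 and 73 to 67 bases before it for GTGGGAA. The SOX core ACAAT matched in HES4 at 166 to 162 bases before the start and before the fifth RBPJ site, which is 2 of 13 windows, and 24.6% of all windows hold it. None of the windows of NOTCH2, NOTCH1, JAG1 and JAG2 held any of the 5 motifs searched, which include the E-box and the N-box given next.

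The N-box CACNAG, a form that HES proteins are known to bind, matched in 4 of the 9 members and 4 of 13 windows and is held by 32.0% of all windows. HES1 held 3 of these N-boxes, at 165 to 160, 132 to 127 and 58 to 53 bases before its start. NOTCH2NLA held an N-box at 19 to 14 bases before its start. The last letters of that N-box lie past the run shared with the NOTCH2 window, which ends at the NOTCH2 start. Over the 300-base windows the shared run was 246 bases and went on past that start. NOTCH2 thus holds the same N-box letters across its start, where the window searched cuts them. The E-box CACGTG matched in 0 of the 9 members and is held by 6.34% of windows. Among the motifs, the long RBPJ core contains the short core. Each is a match of letters in the window searched.

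**Figure D4:**
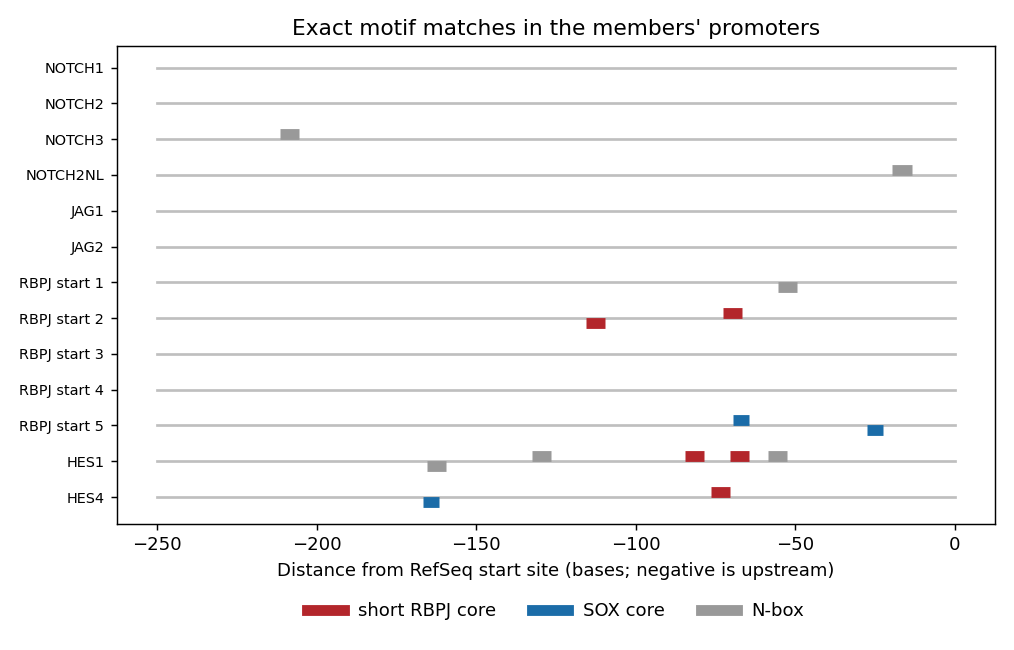
Exact matches of the short RBPJ core, the SOX core and the N-box in the 250 bases before each RefSeq start site, by distance from the start in bases, with matches on the gene's strand above the line and on the other strand below it. HES1 holds short RBPJ cores beginning 84 and 70 bases before its start, the second without the G of the long core. HES4 holds 1 beginning 76 bases before its start, while the NOTCH2, NOTCH1, JAG1 and JAG2 lines are empty.

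The machinery that cuts, modifies and reads Notch receptors was followed in 64 other pathway genes, of which 56 were tested. A single gene passed, PSENEN, which rose, and 0 fell, so 1 of 56 rose beside 0.868% of all tested genes. The median log2 fold change of the 56 genes was 0.06, against -0.02 over all tested genes. At an unadjusted p under 0.05 there were 6 of these genes, beside 11.1% of all tested genes. The 8 untested genes, among them the receptor NOTCH4, had mean normalized counts of 7.59 or less.

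Genes of receptor cleavage had 1 rise, 0 falls and 8 not called among 9 tested. PSENEN, a subunit of the gamma-secretase that frees the inner part of the receptor, had an implied level of 5113 normalized counts in SOX9 siRNA cells and 3359 in control siRNA cells. It was at 152% of control in the authors' deposited table, with a 95% interval from 120% to 194%, and the DESeq2 adjusted p was 0.0413. The gamma-secretase genes PSEN2, NCSTN, APH1A and APH1B had log2 fold changes from -0.14 to 0.36 in the authors' deposited table, with 0 called. ADAM10, the protease that makes the cut before gamma-secretase and the gene of the cleavage list with the highest count, was at 89.7% of control in the authors' deposited table, with an interval from 73.2% to 110%.

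The coactivators had 0 calls among 8. MAML1, which binds the receptor fragment and RBPJ together, had an implied level of 1517 normalized counts in SOX9 siRNA cells and 2443 in control siRNA cells. Its value of 62.1% of control, with an interval from 46.1% to 83.6%, did not pass, and its DESeq2 adjusted p was 0.0752 in the authors' deposited table. SNW1, a cofactor of RBPJ complexes, was at 89.9% of control in the authors' deposited table. Corepressors had 0 calls among 11, with the histone deacetylase HDAC1 at 95.2% of control by the authors' deposited table.

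On the ligand side, 0 of 3 other ligands, 0 of 2 non-canonical ligands and 0 of 3 genes of ligand endocytosis were called. DLL3, a ligand that in mammals holds back signalling within its own cell, had implied levels of 5598 normalized counts in SOX9 siRNA cells and 6642 in control siRNA cells. DLL3 was at 84.3% of control in the authors' deposited table, with an interval from 61.8% to 115%. DLL4, a ligand known from blood vessels, was at 48.1% in the authors' deposited table with an interval from 20.4% to 113%, at a mean normalized count of 37.8. The non-canonical ligands DLK2 and DNER had levels of 102% and 124% of that in control siRNA cells, from the authors' deposited table. MIB1, the ubiquitin ligase that lets ligands pull on receptors, was at 123% in the authors' deposited table with an interval from 97.9% to 155%.

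Receptor glycosylation had 0 calls among 9 tested genes. POFUT1, which puts fucose on Notch receptors, was at 108% of control, and the xylosyltransferase GXYLT1 stood at 81.3% in the authors' deposited table. Receptor trafficking and turnover had 0 calls among 6, with the ubiquitin ligase ITCH at 105% of control and NUMB, an inhibitor of Notch, at 112% in the authors' deposited table. Other HES, HEY and feedback genes had 0 calls among 5. HES6 was at 105% of control, and HES7, an oscillating repressor of the embryo, was at 150% with an interval from 73.3% to 305% in the authors' deposited table. NRARP, a feedback inhibitor that Notch signalling is known to switch on, had a log2 fold change of 0.06 with a standard error of 0.26 in the authors' deposited table.

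**Figure D5:**
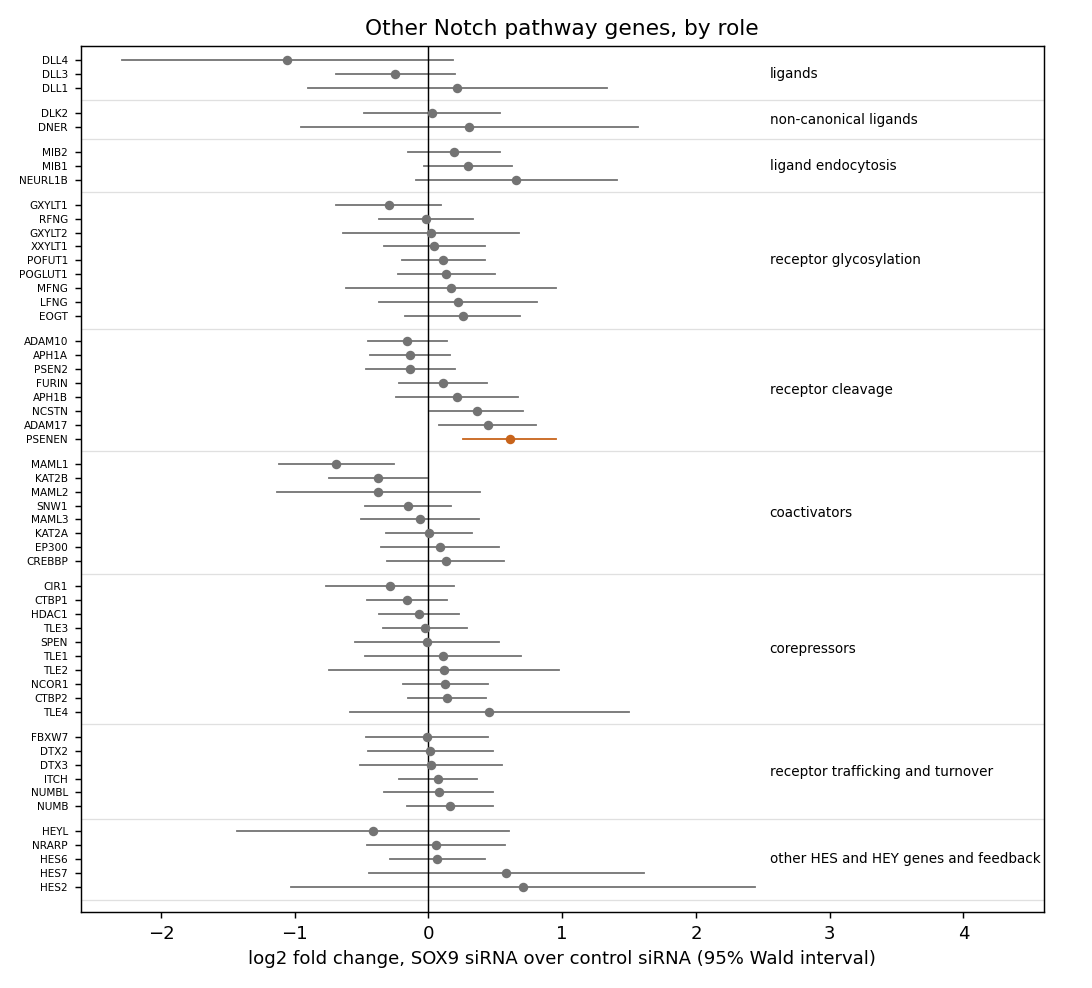
Log2 fold change of 54 of the 56 tested other pathway genes, SOX9 siRNA over control siRNA, with 95% Wald intervals and grouped by role. PSENEN, in orange at 0.61, is the gene that passed the test, and MAML1 at -0.69 did not.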

How the data were processed

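RNA of 2 SOX9 siRNA and 2 control siRNA libraries was compared by the authors, and the labels' protocols give at least 60000000 reads per library. HISAT2 2.0.5, featureCounts and DESeq2 1.18.1 are named without settings, per the submitters' processing notes, where the builds are hg19 and mm10 without a stated use. The deposited mean normalized count is a signal, scaled and averaged over libraries per the file headers, and the authors' fold change and its standard error are log2 values. The Wald statistic is the authors' score, and p-values and adjusted p-values are as deposited. Adjusted p was given for 14063 of 19830 genes, called tested. Depth per library and use of strand are not given in the sources used here. Of 11 genes that overlap a member in the RefSeq table, 2 were in the authors' table, with mean counts of 1.01 or less.

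The 95% Wald intervals span 1.96 standard errors on each side. Implied group levels assume groups of equal size. The counting standard error was computed from the implied levels of 2 libraries a group and covers counting error only. Calculations used Python 3.11.15, pandas 2.3.3 and scipy 1.17.1 and were tested on simulated data.

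The members and the list of 64 other pathway genes were chosen with earlier results of these data known. Named were all members, the called pathway genes, and in each subgroup the gene with the highest count and that with the smallest p. NRARP, NCSTN, APH1A, APH1B, PSEN2, NOTCH4 and TGGGAA were added after values were seen, as were the identity of promoter windows and the NOTCH2 sums. Some genes of the lists are not reported here. Sequences are from RefSeq, GRCh38.p14. Promoters were found for 9 of 10 members. Alternatives were other thresholds, count minimums, centring and a test against 1.5-fold.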

Additional observations from a re-analysis of the deposited data

How the results depend on the processing

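NOTCH2 was the 1 member called, also at an adjusted p under 0.1 or 0.01, with adjustment over every gene, at mean count minimums of 100 and 1000, and after centring. Of all genes, 0.963% were called with adjustment over every gene, 2.19% and 2.17% at the 2 count minimums, and 1.8% after centring. The share over all genes was not computed at 0.1 and 0.01. Tested against a change of 1.5-fold or less, 0 members and 0 other pathway genes passed, where 3 of all tested genes did. NOTCH2 then had an unadjusted Wald p of 0.000976 and, adjusted over all 14063 tested genes, an adjusted p of 0.868. Its adjusted p was 1.89e-05 to 3.16e-05 in the other settings. At an unadjusted Wald p under 0.05 in the 1.5-fold test there were 1 member, NOTCH2, and 0 other pathway genes, beside 72 of all 14063 tested genes. The cause of the NOTCH2 fall was not tested. Of the other pathway genes, 2 were called at an adjusted p under 0.1, where MAML1 joined PSENEN, 0 at 0.01, and 0 with adjustment over every gene, which tests more genes. At an unadjusted DESeq2 p under 0.05 there were 6. Of these settings only centring changes the fold changes themselves, by 0.02. That shift was too small to turn the direction of any of the 10 members. HEY1 and NOTCH3 fall below a count of 100. No paired analysis was possible because the table gives no values per library, and for the same reason no library could be left out.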

Other observations

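HES2, a pathway gene outside the members, had a mean normalized count of 905 in the authors' deposited table, close to the 909 of HES4. Its standard error there was 0.88, above that of 99.8% of 3794 tested genes of like count, while that of HES4 was 0.19. The fold change of HES2 was 0.71 on the log2 scale in the authors' deposited table, and a rise of 7.65-fold would have been needed for a call. LFNG, a sugar transferase that tunes which ligands a Notch receptor answers, had a standard error above that of 97.6% of genes of like count and stood at 0.22 on the log2 scale in the authors' deposited table. HES2 and LFNG were named after their values were seen.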
